A study of Mus musculus with 6 samples.

Results

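MiR-191 and miR-425 are neighbouring mouse miRNAs, and both were read on microarrays of small RNA from the renal cortex. They are the 2 array entries named mmu-miR-191 and mmu-miR-425, out of 599 mature miRNAs on the array, and their star strands were not counted as members. The pair was selected on the treated minus control difference of miR-191, which lay lower in treated mice in earlier work on these same arrays, and miR-425 was taken because it lies beside it. For that reason the treated minus control values of both are given as a description without a test.

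The study compared 3 untreated C57Bl6 mice with 3 mice that received food of 0.05% sodium and, in the water they drank, captopril at 0.5 g/L for 10 days. Captopril blocks the angiotensin converting enzyme, and this regimen is known to raise renin in the kidney. Both groups were whole cortex of the same strain without any genetic change, with 2 males and 1 female each. Treated replicate 1, a female, was 5 months old, and the other 5 mice were 3.5 months old. The dye was Cy3 for control replicates 1 and 3 and treated replicate 2. It was Cy5 for control replicate 2 and treated replicates 1 and 3.

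MiRNAs are short RNAs that guide Argonaute proteins to messenger RNAs, mostly through pairing of the seed, bases 2 to 8 of the mature strand. MiR-191 is expressed in many tissues and is often used as a reference miRNA in RT-qPCR, because its level tends to vary little between samples. MiR-425 is made from the same locus, and in human cells it is known to target the messenger RNA of atrial natriuretic peptide, a hormone that promotes sodium excretion.

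The mature strands are shown because the seed sets which messenger RNAs a miRNA can pair with, and because the array reads them by hybridisation. The seed is in capitals, and the target sequence given for each probe on the array matched the RefSeq entry (GRCm38.p6) exactly. MiR-489 is shown beside the members because it shares the seed of miR-425.
miR-191: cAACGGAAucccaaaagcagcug
miR-425: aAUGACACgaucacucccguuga
miR-489: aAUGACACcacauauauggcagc
MiR-191 lies at chr9:108568325-108568347 and miR-425 at chr9:108568789-108568811, both on the plus strand of GRCm38.p6. No other miRNA of the array, and no other mature strand of the RefSeq table, carried the seed of miR-191. The seed of miR-425 was shared with miR-489 alone, in both the array and the table. The members have different seeds, and 15 single-base edits separate their sequences. The nearest other array entries lay 10 edits from miR-191 (miR-130a, miR-193b, miR-324-3p and miR-590-5p) and 8 edits from miR-425 (let-7g* and miR-878-3p).

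The hairpins show how close the members sit and where their star strands lie. The arms that the table lists as mature are in capitals, the member first and the star strand second.
Mir191 hairpin: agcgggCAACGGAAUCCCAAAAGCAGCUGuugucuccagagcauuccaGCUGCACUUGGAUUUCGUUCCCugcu
Mir425 hairpin: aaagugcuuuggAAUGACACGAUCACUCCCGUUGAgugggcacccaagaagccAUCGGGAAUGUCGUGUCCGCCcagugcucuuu
The hairpins are 74 and 85 bases long, at chr9:108568319-108568392 and chr9:108568777-108568861, with 384 bases between them. Both lie within the span of the protein-coding gene Dalrd3 in the same annotation. The levels below are those of mature strands in whole tissue, where fewer cells of a type and less of a miRNA per cell cannot be told apart.

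The arrays differed in brightness. Empty spots had a median of 219 to 459 in samples with Cy3 and 34.4 to 51.2 in those with Cy5, and 127 to 229 miRNAs lay above background in a sample. The median tested miRNA lay at 5.34 and 4.87 times the empty spots in treated replicates 1 and 3, at 1.37 times in treated replicate 2 and at 1.72 to 2.11 times in the controls. Control replicate 3 had the lowest mean correlation with the other samples (Pearson's r 0.923, against 0.952 to 0.968 for the other 5) over the 197 miRNAs tested, those above background in at least 3 samples. The tissue label was checked against marker miRNAs: 7 of 8 miRNAs enriched in the renal tubule were above background in all 6 samples, and the eighth, miR-204, in 3. Of the striated muscle, liver and brain markers, none was above background in all 6 samples. MiR-122 of liver and miR-9 of brain were above it in 3, as miR-204 was, and the others in 2 or fewer. The p-values set a difference against the spread between samples within groups, and the number of arrays limits the precision. Each sample is a single mouse, so spread between mice and spread between hybridisations cannot be told apart.

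MiR-191 was well above the empty spots in every sample. The median of its 5 spots read 4194, 723 and 3547 in control replicates 1, 2 and 3, and 1542, 2680 and 1832 in treated replicates 1, 2 and 3. Divided by the median empty spot of the same sample, these spots stood at 14.5, 14.1 and 16.2 times in the controls and at 41.0, 5.84 and 53.3 times in the treated samples. The controls were thus alike by this measure, whereas the treated samples lay on both sides of them, with replicates 1 and 3, on the arrays of brighter signal over background, above and replicate 2 below. Spots of miR-191 within a sample had a coefficient of variation of 3.84% to 8.95%. MiR-191 ranked between 39 and 51 in brightness among the 599 probes in the 6 samples.

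**Figure D1:**
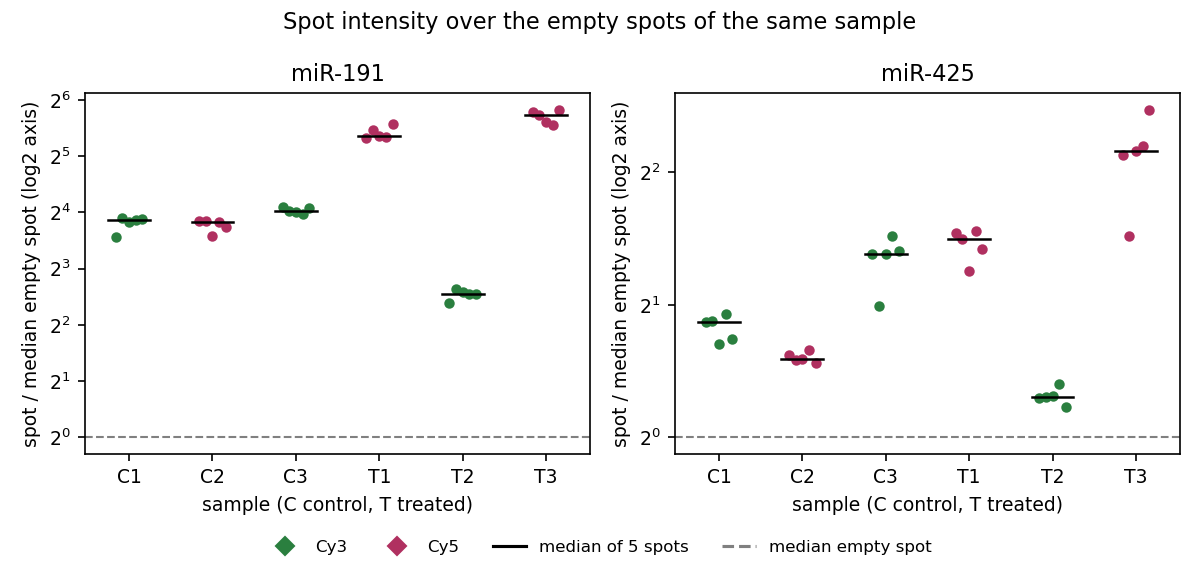
Intensity of each of the 5 spots of miR-191 (left) and miR-425 (right), divided by the median empty spot of the same sample, on a log2 axis, for 3 control (C) and 3 treated (T) samples. Points are spots coloured by dye, bars are medians and the dashed line marks the empty spots. All spots of miR-191 lie far above the line, and those of miR-425 in T2 lie just above it, with a median of 1.23.

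MiR-425 was much closer to background. Its median spot stood at 1.82, 1.51 and 2.61 times the empty spots in control replicates 1, 2 and 3, and at 2.82, 1.23 and 4.47 times in treated replicates 1, 2 and 3. It passed the background limit, the mean of the empty spots plus 3 SD, in all 6 samples. The margin was 0.064 on the log2 scale in treated replicate 2 and 0.22 in control replicate 2, against 1.86 in treated replicate 3, so the level in the first 2 of these samples is the least certain. Its spots varied within a sample by 2.58% to 22.0%, the highest in treated replicate 3, where they ran from 98.7 to 191. MiR-425 ranked between 91 and 136 of the 599 probes.

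The star strands and the seed relative of miR-425 gave little or no signal. MiR-191* did not pass the background limit in any sample, and its median spot stood at 0.960 to 1.16 times the empty spots. MiR-425* passed in treated replicate 3 alone, by 0.026 on the log2 scale, with spots at 1.02 to 1.21 times the empty spots over the 6 samples. MiR-489 passed in none, at 1.01 to 1.21 times.

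After normalisation between samples, miR-191 lay below all controls in treated replicates 1 and 3, and level with the lowest control in treated replicate 2. The normalised level of mmu-miR-191, a log2 intensity, was 11.20, 11.27 and 11.14 in control replicates 1, 2 and 3. In treated replicates 1, 2 and 3 it was 10.46, 11.14 and 10.74. Treated replicate 2 held the same rank as control replicate 3, and quantile normalisation gives equal ranks the same value, so the groups touched at that level. The mean level was 11.20 ± 0.065 (SD, n = 3) in control and 10.78 ± 0.34 (SD, n = 3) in treated samples. The controls spanned 0.13 and the treated samples 0.68.

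With dye as a term in limma, miR-191 differed by -0.35 in treated minus control samples on the log2 scale (SE 0.25, 95% interval -0.98 to 0.28). This is 78.5% of the control level, with an interval of 50.6% to 122% that includes no difference. Over all miRNAs tested, 0 of 197 (0%) passed an adjusted p of 0.05 in that limma fit and 1 (miR-327, 0.508%) had an unadjusted p under 0.05. The difference of miR-191 was the 14th lowest of the 197, whose quartiles lay at -0.14 and 0.17. In a fit with a block for each replicate number next to the dye, the difference was also -0.35, with an interval of -0.82 to 0.12. With that number as a random block, the interval was -0.66 to -0.036, which excludes 0. In that limma fit, 20 of the 197 miRNAs had an unadjusted p under 0.05 for treatment. None passed, and the smallest adjusted p was 0.175. The pairs behind the block were taken from these data and the contrast is the one that picked miR-191, so this interval lends it no support.

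The difference of miR-191 was not alike in the 2 dyes. Within Cy3, treated replicate 2 differed from the mean of control replicates 1 and 3 by -0.033. Within Cy5, the mean of treated replicates 1 and 3 differed from control replicate 2 by -0.67. The fit of all 6 samples averages these values, and each rests on a single mouse in 1 of the groups. Without control replicate 2 the difference was -0.037, and without treated replicate 2 it was -0.66. Treated replicate 1, the only mouse of 5 months, had the lowest level of miR-191, and without it the difference was -0.26. The part of age in the result was not tested. The Cy5 contrast also sets the samples of brightest signal over background, at 5.34 and 4.87 times, against a control at 1.72 times, and the part of that in the result was not tested.

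**Figure D2:**
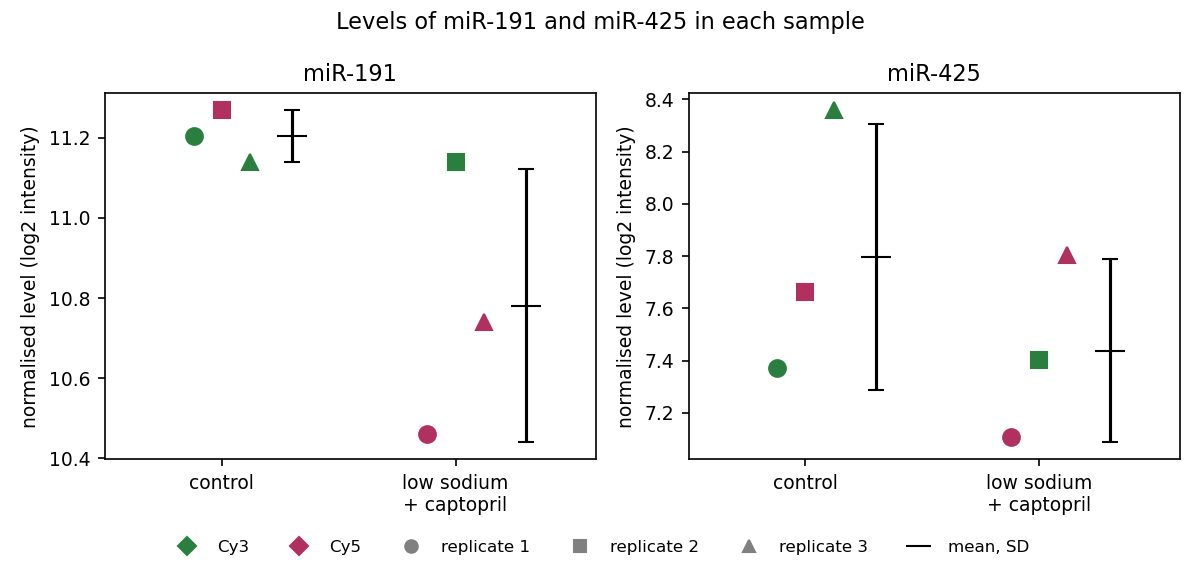
Normalised level (log2 intensity) of miR-191 (left) and miR-425 (right) in each control and treated sample, coloured by dye and shaped by replicate number, with the mean and SD of each group (n = 3). The 3 controls lie within 0.13 of each other for miR-191, and the treated samples reach from 10.46 up to the lowest control at 11.14. The groups overlap for miR-425.

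MiR-425 had lower values in treated mice as well, but its groups overlapped broadly. The normalised level of mmu-miR-425 was 7.37, 7.66 and 8.36 in control replicates 1, 2 and 3. In treated replicates 1, 2 and 3 it was 7.11, 7.40 and 7.81. The highest level was that of control replicate 3 and the lowest that of treated replicate 1, with treated replicate 3 above 2 of the 3 controls. Treated replicate 1 was the lowest sample for both members and for 29 of the 197 miRNAs (14.7%). The mean level was 7.80 ± 0.51 (SD, n = 3) in control and 7.44 ± 0.35 (SD, n = 3) in treated samples, and the controls alone spanned 0.99.

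The treated minus control difference of miR-425 was -0.33 in limma with dye (SE 0.38, 95% interval -1.28 to 0.61), or 79.3% of control with an interval of 41.1% to 153%. The within-dye differences were -0.46 in Cy3 and -0.21 in Cy5. MiR-425 was the 18th lowest of the 197. Without control replicate 3, the sample that correlated least with the others, the difference was -0.091. It came to -0.52 and -0.50 when control replicate 1 or 2 was left out, and to -0.20 and -0.21 when treated replicate 1 or 2 was. When both samples numbered 3 were left out, it was -0.21, and that of miR-191 was -0.39.

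Both members lay lower in the treated sample of every pair of equal number. The differences of pairs 1, 2 and 3 were -0.74, -0.13 and -0.40 for miR-191 and -0.26, -0.26 and -0.55 for miR-425. Each pair holds both dyes, so a pair difference is also a dye difference. Of the 197 miRNAs, 32 (16.2%) were lower in all 3 pairs and 28 (14.2%) higher, so this pattern was common on these arrays. It belongs to the contrast that picked miR-191 and lends it no support.

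The authors' processed values of miR-191 did not overlap between the groups, whereas the normalised levels met at a shared value. The processed values were 2212, 2195 and 2361 in control replicates 1, 2 and 3, and 1366, 2080 and 1552 in treated replicates 1, 2 and 3. All treated values lay below all control values, with treated replicate 2 close to the controls. The means were 2256 ± 91.3 and 1666 ± 370 (SD, n = 3 each), 73.8% of control. In limma with dye, the log2 difference of these values was -0.36, with an interval of -1.28 to 0.55 that includes no difference. That interval is wider than the -0.98 to 0.28 of the normalised levels. The contrast is also the one that picked miR-191, so the lack of overlap lends it no support. Of the 197 miRNAs, 7 (3.55%) were lower in treated samples without overlap in these values, and 4 (miR-28*, miR-106a, miR-322* and miR-329, 2.03%) in the normalised levels, where miR-191 was not among them.

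For miR-425 the processed values were 112, 119 and 288 in control replicates 1, 2 and 3 and 79, 102 and 188 in treated replicates 1, 2 and 3. The groups overlapped, and within each group replicate 3 was the highest. The means were 173 ± 99.7 and 123 ± 57.5 (SD, n = 3 each). The scale and centring of the processed values are not known.

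The way samples were scaled to each other changed the value of miR-191. With no normalisation between samples its difference was 0.31, and the median of all 197 miRNAs was 0.29, so relative to that median miR-191 lay at 0.014. With scaling to the 75th percentile its difference was -0.51 and the median -0.53. That scaling moves all miRNAs of a sample by a single amount, so the value relative to the median, 0.014, is the same by construction. After quantile normalisation it lay at -0.34 relative to a median of -0.011, and after cyclic loess normalisation at -0.22 relative to 0.014. The lower level of miR-191 against other miRNAs was thus seen with the 2 methods that adjust bright and dim probes separately, and in the deposited values (-0.40 relative to the median), but not when each sample was moved by a single amount or left unscaled. MiR-425 lay between -0.32 and -0.31 relative to the median under these 4 settings, of which 2 must give the same value. The background step mattered more for it: with the median empty spot subtracted in place of normexp, its difference was -0.61 (95% interval -2.24 to 1.03), whereas that of miR-191 was -0.37.

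**Figure D3:**
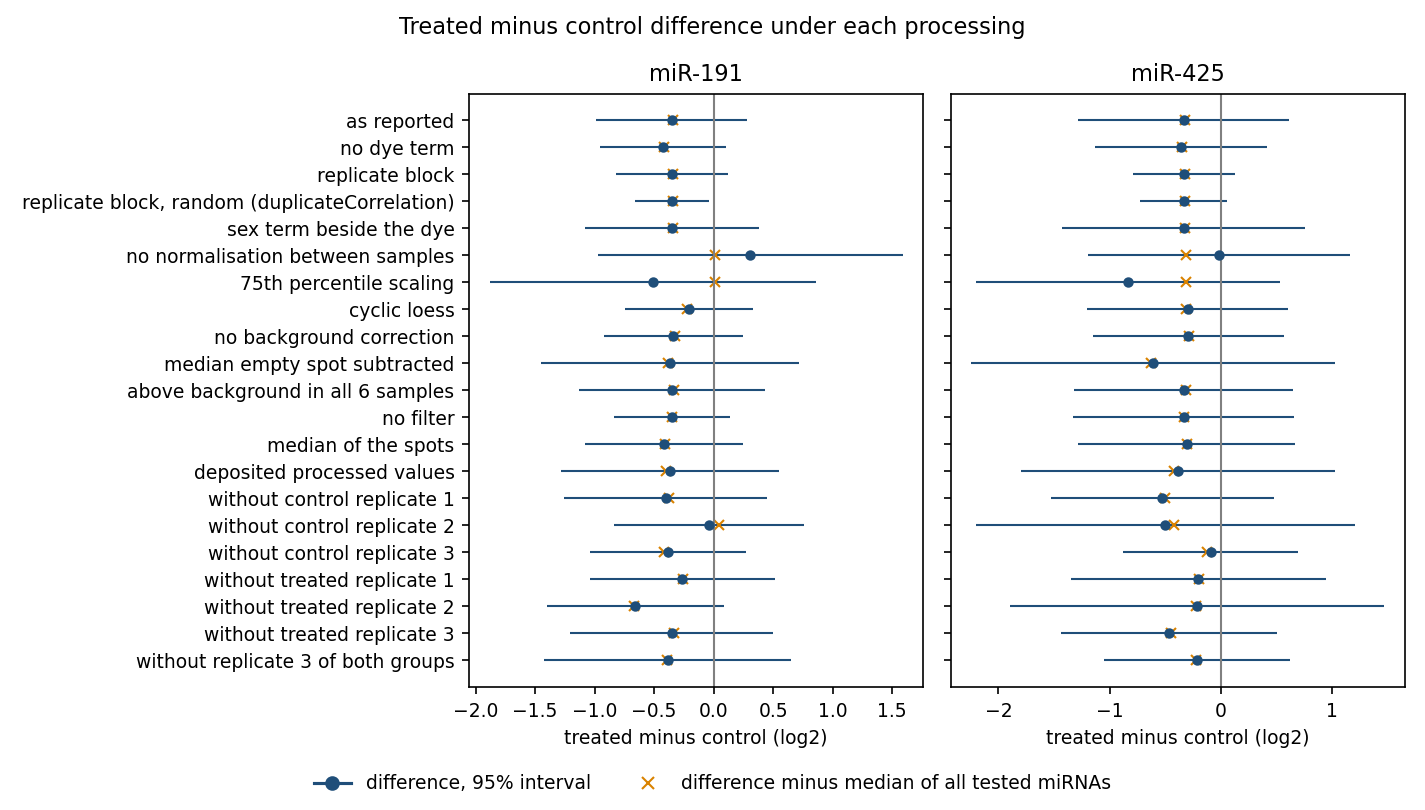
Treated minus control difference (log2) of miR-191 (left) and miR-425 (right) as reported and under each other processing. Circles are the difference with its 95% interval, and crosses the difference minus the median of all tested miRNAs. For miR-191 the cross lies at 0.014 without normalisation and with 75th percentile scaling, and the circle is above 0 in the former.

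Dye was not used to pick the members and was tested in the same fit. MiR-191 differed by -0.22 in Cy5 minus Cy3 samples (95% interval -0.85 to 0.41, adjusted p = 0.991 in limma), and it was lower in treated replicates 1 and 3 but highest of all in control replicate 2, which also carried Cy5. MiR-425 differed by -0.074 (-1.02 to 0.87, adjusted p = 0.991 in limma). With no normalisation between samples the dye differences were -1.40 (-2.68 to -0.12) for miR-191 and -1.34 (-2.52 to -0.15) for miR-425, where the median of all 197 miRNAs was -1.12 and the adjusted p = 0.144 for both in limma. After quantile normalisation no miRNA passed in that comparison (0 of 197, 0%), and 4 (miR-182, miR-345-5p, miR-377 and miR-712*, 2.03%) had an unadjusted p under 0.05. Each group held a single female, and in limma with sex as a further term male minus female was 0.29 for miR-191 (-0.45 to 1.02, adjusted p = 0.955) and -0.17 for miR-425 (-1.26 to 0.92, adjusted p = 0.958). Of the 197, 0 (0%) passed or had an unadjusted p under 0.05 in that comparison. The females were treated replicate 1, the only mouse of 5 months, and control replicate 3, the sample that correlated least with the others. Sex therefore cannot be told apart from these traits. With 6 samples, the dye and sex intervals after quantile normalisation were wide, and they included both no difference and differences in either direction.

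The members did not follow each other closely across samples. Over the 6 samples their normalised levels had a Pearson's r of 0.374 and a Spearman's rho of 0.174. By Pearson's r, 32 of the other 196 miRNAs correlated more highly with miR-191. Seen from miR-425, miR-191 ranked 85th of the other 196. Subtracting the log2 level of miR-425 from that of miR-191 within a sample gave 3.83, 3.61 and 2.78 in control replicates 1, 2 and 3. The same subtraction gave 3.36, 3.74 and 2.93 in treated replicates 1, 2 and 3. The value was smallest in replicate 3 of both groups, where miR-425 was highest, and its size has no meaning as an abundance ratio, because the 2 probes differ in response. Its mean was 3.41 ± 0.55 (SD, n = 3) in control and 3.34 ± 0.40 (SD, n = 3) in treated samples.

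The miRNAs whose levels were most like those of miR-191 over the 6 samples were miR-28* (Pearson's r 0.975), miR-30c-2* (0.837), miR-320 (0.759), miR-214 (0.750) and miR-329 (0.713). Of these, miR-28* was above background in 4 samples and miR-329 in 3. In the deposited values the correlation of miR-28* with miR-191 was 0.344. Most like miR-425 were miR-34a (0.960), miR-674* (0.955), miR-24 (0.952), miR-455 (0.938) and miR-27b (0.938), with values of 0.849 to 0.975 in the deposited values. The 6 points share their arrays, dyes and scaling, and these correlations are a description.

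MiR-191 and miR-425 were set beside a list of 22 miRNAs that are used as references in RT-qPCR, both members included. Of these, 20 were tested, and miR-186 and miR-423-3p were not above background in enough samples. None of the 20 passed in the treated against control comparison, where 0% of all miRNAs did. The median difference of the 20 was -0.095, beside -0.011 over all 197, with 14 below 0 and 6 above. For all 197, 104 (52.8%) lay below 0. In all 3 pairs, 4 of the 20 were lower (miR-191, miR-425, miR-103 and miR-17), against 16.2% of all tested, and miR-16 and miR-451 were higher. Among the 18 references other than the members, only miR-103 and miR-17 were lower in all 3 pairs. The median and counts of the 20 include both members, and miR-191 was picked on this contrast, so they lend it no support.

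The values of single members of this list ran from -0.42 to 0.80. MiR-103, an intronic miRNA of the Pank genes that is also a common RT-qPCR reference, differed by -0.42 (95% interval -1.25 to 0.41), with levels of 10.62 ± 0.26 (SD, n = 3) in control and 10.20 ± 0.44 (SD, n = 3) in treated samples. MiR-17, of the miR-17 to miR-92 cluster, differed by -0.36 (-1.36 to 0.63). MiR-16, a widely expressed miRNA, differed by 0.32 (-0.64 to 1.29). At the other end lay miR-451, which is made in red cells, at 0.80 (-0.14 to 1.74). The differences of the other 14 tested references lay between those of miR-93 (-0.23) and miR-92a (0.30).

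**Figure D4:**
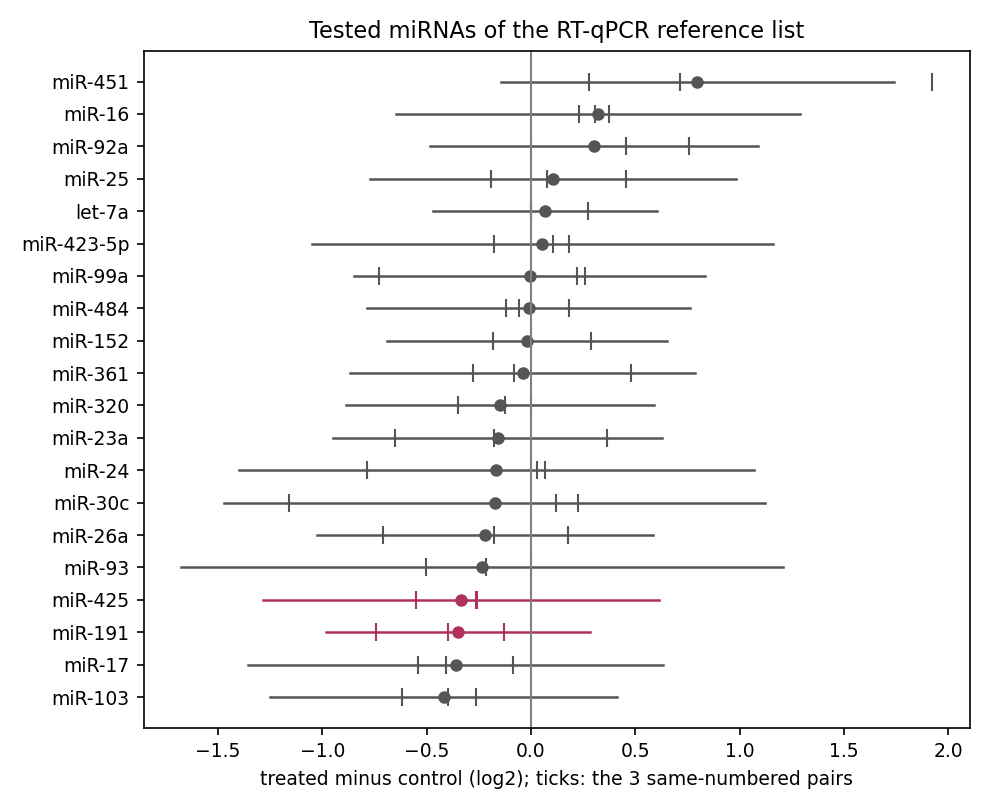
Treated minus control difference (log2) of the 20 tested miRNAs of the reference list, with miR-191 and miR-425 in red. Circles and lines are the limma difference with its 95% interval, and ticks the differences of the 3 pairs of equal number. Every interval includes 0, and the differences run from -0.42 for miR-103 to 0.80 for miR-451.

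The spread of miR-191 within groups was small beside that of the other references. Its SD within groups, pooled over control and treated samples, was 0.24 on the log2 scale. Of the 20 references, only let-7a had a lower value, 0.11, and its level is capped at the top value that quantile normalisation sets. The median was 0.38 for the 20 references and 0.34 for all 197 miRNAs, where miR-191 ranked 60th from the lowest. The pooled value hides unequal groups, with an SD of 0.065 in control and 0.34 in treated samples. MiR-425 had a pooled SD of 0.44 and ranked 134th.

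Neither tested red cell marker, miR-451 or miR-486 (0.89, 95% interval -0.65 to 2.42), passed. The level of miR-451 alone did not overlap between the groups (8.72 to 9.92 in control, 10.20 to 10.64 in treated samples). It is among the 5 of the 197 single miRNAs (2.54%) that were higher in treated samples without overlap. Summed over the list, the level did not overlap either, whereas the sums of the other marker lists overlapped. The share for single miRNAs is not a base for a sum. The summed level of miR-451, miR-486 and miR-144 (log2 of the summed normalised intensity) was 9.34 to 10.78 in control and 11.04 to 11.24 in treated samples, although miR-144 lay within background on every array. Among the leukocyte markers, miR-150 was above background in all 6 samples, miR-223 in 2, and miR-142-3p and miR-142-5p in none, and the summed level overlapped between the groups (9.12 to 9.99 in control, 9.51 to 10.25 in treated). The summed tubule markers stood at 15.65 to 15.82 in control and 15.68 to 15.85 in treated samples. The part of red cells in the levels of miR-191 and miR-425 was not tested.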

How the data were processed

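Per the labels' protocols, small RNA of renal cortex received a poly(A) tail and a ligated tag, and was stained with Cy3 or Cy5 and hybridised by a service provider. The deposited spot tables hold the mean intensity of each of 3968 spots on a linear scale, per the file headers, with 5 spots for each miRNA and 669 empty spots, and background is still in these values. The authors' processed intensity per miRNA was deposited as whole numbers (medians of 17 to 19 per sample). The sources used here do not give its normalisation. Its columns matched the spots of their own samples (Spearman's rho of 0.995 or more over the tested miRNAs, 0.965 or less with other samples).

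In R 4.3.3 with limma 3.58.1, intensities were corrected with normexp (offset 50, all spots of a sample), and the mean log2 value of each probe's spots was quantile-normalised over 599 probes. MiRNAs above background (mean of the empty spots plus 3 SD, log2 scale) in at least 3 of 6 samples were tested (197). The model held group and dye (lmFit, eBayes, two-sided, Benjamini-Hochberg), and was first tested on simulated data. The normalised levels, differences, SE and intervals come from that fit unless another is named. Deposited values entered fits and correlations as log2(value + 1).

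The labels give both groups replicate numbers 1, 2 and 3. Over the tested miRNAs, the deviations from the group means correlated between samples of equal number (r = 0.447, 0.460 and 0.781), each above 0.1. The numbers were therefore treated as pairs in the pair differences and in the fits with a block. The correlations come from the data, and 2 unlike-numbered combinations also reached 0.256 and 0.246. The reported fit, with group and dye, has no term for the pairs. The fit with the block left 1 residual degree of freedom per miRNA.

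The members and lists were chosen with earlier results of these data known. Named miRNAs are the members, their star strands, the reference list, the 5 tested miRNAs most like each member by Pearson's r and the nearest sequences. MiR-489 and the miR-451 to miR-144 values were added as the seed relative and as markers. Small counts were named after their values were seen. Sequences are RefSeq's, GRCm38.p6, and the array's target sequence equals a RefSeq mature strand for 478 of 599 probes.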

Additional observations from a re-analysis of the deposited data

How the results depend on the processing

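The treated minus control difference of miR-425 stayed below 0 under all 20 alternatives, and that of miR-191 under 19 of 20. With no normalisation between samples the difference of miR-191 was 0.31. That of miR-425 was then -0.016 (interval -1.20 to 1.17), which is close to no difference. The alternatives reuse the same arrays and the contrast that picked miR-191, so the count of signs lends no support. Leaving out samples gave -0.66 to -0.037 for miR-191 and -0.52 to -0.091 for miR-425. With 75th percentile scaling the difference of miR-425 was -0.84, beyond its main value by more than its pooled SD within groups. The median of all tested miRNAs moved by a similar step. The groups of miR-191 did not overlap under 5 alternatives: 75th percentile scaling, the deposited values, and without control replicate 3, treated replicate 2 or both samples numbered 3, the last chosen after seeing the data. Those of miR-425 did not overlap under 75th percentile scaling alone, where the median of all tested miRNAs was -0.53. Of all tested miRNAs, 3.55% were lower without overlap in the deposited values, and the share under the other alternatives was not computed. Fits with fewer samples separate more easily, and the contrast is the one that picked miR-191, so this lends it no support. The Cy5 minus Cy3 difference ran from -0.55 to 0.092 for miR-191 and from -0.25 to 0.15 for miR-425 when samples were left out, was -1.40 and -1.34 with no normalisation between samples, and was above 0 for miR-191 without treated replicate 2 (0.092) and for miR-425 without control replicate 2 (0.053), control replicate 3 (0.15), treated replicate 1 (0.036) or both samples numbered 3 (0.011). Neither member passed for dye under any alternative (adjusted p 0.144 to 1). The count of miRNAs past the threshold in limma was 0 for treatment under all 20 alternatives, with 0 to 20 at an unadjusted p under 0.05. For dye it was 1 (miR-377) under 75th percentile scaling and 0 under the other 18. With the replicate block, 15 miRNAs had an unadjusted p under 0.05 for treatment, the smallest adjusted p was 0.287, and no call changed. The cause of these shifts was not tested. Signal near the empty spots limits miR-425 in treated replicate 2 and control replicate 2.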
